A study of Mus musculus with 7 samples.

Results

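The genes described here encode the core machinery of macroautophagy, in old and young haematopoietic stem cells (HSCs) of the mouse. They were taken from the deposited count table by symbol: every row beginning with Atg, Wipi or Ulk and a number, or with Gabarap or Map1lc3, and 15 further genes by name. The rule found 44 of the 24015 genes in the table and used no measured value, but was chosen with earlier results of these data known. The 3 old and 4 young samples were HSCs sorted by flow cytometry from C57BL/6 bone marrow by the gate LSKCD150+CD48- (lineage-negative, Sca-1+, c-Kit+), and polyadenylated RNA of each sample was sequenced as a bulk library. No genotype or treatment separates the samples, so old against young was the only comparison. The labels give neither the ages nor whether each sample came from 1 mouse or a pool, so the p-values rest on differences among these libraries alone, which may partly be technical.

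Autophagy encloses cytoplasm in a double membrane, the autophagosome, and delivers it to lysosomes for breakdown. The ULK kinase complex starts the process, a lipid kinase complex marks the membrane with phosphatidylinositol 3-phosphate (PI3P), and the proteins of the ATG8 family are joined to membrane lipid, where they help the membrane grow and hold cargo receptors. In mouse HSCs, autophagy is known to clear mitochondria and to maintain stem cells, and loss of Atg7 or Atg12 in blood cells is known to harm them. Much of its control acts on proteins after transcription, and RNA levels do not measure how much is degraded.

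The libraries held 22203806 to 32401925 counts. Levels are given as CPM, read counts scaled to the library total by TMM. Where a gene had no count in a library, its level there could still be up to 0.0929 to 0.137 CPM, which is what 3 counts were worth. Young 1 and young 2 stood apart from the other libraries on the first and second principal components. All 10 HSC markers had counts, with summed levels of 3031 to 3238 CPM in old cells, against 1389 to 2489 CPM in young cells. The 3 markers of multipotent progenitors (Cd34, Cd48 and Flt3) summed to 85.2 to 135 CPM in old cells, against 261 to 406 CPM in young cells. Their part in the results below was not tested. Of the lists for differentiated blood cells, the erythroid list held no haemoglobin count, and Ms4a1, Pax5, Cd3e, Cd8a, Ncr1, Ltf and Csf1r were at 0 in all 7 libraries. The monocyte and macrophage list, with 4 of 5 markers detected, summed to 7.21 to 23.8 CPM in old cells, against 28.4 to 72.6 CPM in young cells, without overlap. The sums of the other lists overlapped between groups. They were 136 to 346 CPM in old cells, against 240.1 to 533 CPM in young cells, for the megakaryocyte list (5 of 5 markers detected), and 214 to 273 CPM in old cells, against 65.4 to 382 CPM in young cells, for the NK cell list (2 of 3 detected). The B cell list (3 of 5 detected) summed to 73.4 to 192 CPM in old cells, against 122 to 185 CPM in young cells, and the T cell, neutrophil and erythroid lists to at most 30.0 CPM in old cells, against at most 54.0 CPM in young cells. The part of these lists in the results was not tested.

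No autophagy gene passed an adjusted p of 0.05 with edgeR, where 0.252% of all 11506 tested genes did. The genes with the smallest p were Vmp1, which encodes an endoplasmic reticulum membrane protein needed to form autophagosomes, and Map1lc3b, Gabarapl1 and Gabarap of the ATG8 family. These 4 of the 42 tested members (9.52%) had an unadjusted p under 0.05, all 4 with more in old HSCs, against 9.12% of all tested genes in either direction, 4.62% with more and 4.49% with less in old. In both directions together the share was thus near that of all genes. The groups did not overlap in 4 members (9.52%), all with more in old HSCs (Vmp1, Map1lc3b, Gabarapl1 and Gabarapl2), against 12.7% of all genes in either direction, 7.55% with more and 5.18% with less in old. Scaled by library size alone, 5 of the 42 members (11.9%) did not overlap, beside 1491 of all 11506 tested genes in either direction. Of these members, 4 had more in old HSCs and 1, Atg101, had less. Of these genes, 766 had more in old HSCs and 725 had less. Without old 2, 12 members did not overlap, 9 with more and 3 with less in old HSCs, where 21.3% of all genes did not overlap, 11.9% with more and 9.39% with less. Without young 2, 12 did not overlap, 7 with more and 5 with less in old HSCs, where 23.7% of all genes did not, 12.2% with more and 11.5% with less. Members with an unadjusted p under 0.05 and more in old HSCs numbered 3 without young 1 (4.61% of all genes), 6 without young 2 (6.66% of all genes) and 2 without old 3 (3.58% of all genes). Of the 42, 24 (57.1%) had a positive log2 fold change, against 48.5% of all genes. The median was 0.14, beside -0.03 over all genes. Without old 2 the median was -0.0039, beside -0.0811 over all genes. Being bulk data, these values cannot tell a larger share of cells that express a gene from more RNA in each cell.

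The promoters of 4 members are shown, taken from RefSeq (build GRCm38.p6) as 250 bases before to 50 bases after an annotated start. Vmp1, Map1lc3b and Gabarapl1 are the members with an unadjusted p under 0.05 and groups that did not overlap, and Atg3, the enzyme that joins ATG8 proteins to lipid, is shown for its pair of E-boxes. Capitals mark matches to any of 4 motifs: the E-box CACGTG at the core of the element bound by TFEB, the FOXO motif TGTTTAC, the antioxidant response element TGACNNNGC bound by NFE2L2, and the C/EBP-ATF motif TGATGNAA.
Vmp1 promoter, chr11:86683787-86684086, minus strand: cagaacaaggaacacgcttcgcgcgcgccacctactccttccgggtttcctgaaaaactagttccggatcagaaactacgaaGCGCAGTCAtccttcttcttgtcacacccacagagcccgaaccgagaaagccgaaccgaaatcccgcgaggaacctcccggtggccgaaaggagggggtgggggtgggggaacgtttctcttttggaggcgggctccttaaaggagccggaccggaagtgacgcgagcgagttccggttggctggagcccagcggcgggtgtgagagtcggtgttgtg
Map1lc3b promoter, chr8:121590188-121590487, plus strand: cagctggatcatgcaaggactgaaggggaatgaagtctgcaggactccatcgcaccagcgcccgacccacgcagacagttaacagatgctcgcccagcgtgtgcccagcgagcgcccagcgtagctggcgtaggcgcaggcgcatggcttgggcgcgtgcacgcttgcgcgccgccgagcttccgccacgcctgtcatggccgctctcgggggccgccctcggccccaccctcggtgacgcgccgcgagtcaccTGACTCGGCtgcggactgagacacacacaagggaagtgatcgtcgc
Gabarapl1 promoter, chr6:129532942-129533241, plus strand: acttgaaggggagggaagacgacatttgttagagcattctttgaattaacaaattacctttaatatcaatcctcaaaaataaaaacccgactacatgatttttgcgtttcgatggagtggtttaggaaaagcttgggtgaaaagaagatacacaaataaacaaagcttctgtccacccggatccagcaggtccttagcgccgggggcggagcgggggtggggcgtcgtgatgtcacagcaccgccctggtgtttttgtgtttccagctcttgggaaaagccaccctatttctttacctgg
Atg3 promoter, chr16:45158579-45158878, plus strand: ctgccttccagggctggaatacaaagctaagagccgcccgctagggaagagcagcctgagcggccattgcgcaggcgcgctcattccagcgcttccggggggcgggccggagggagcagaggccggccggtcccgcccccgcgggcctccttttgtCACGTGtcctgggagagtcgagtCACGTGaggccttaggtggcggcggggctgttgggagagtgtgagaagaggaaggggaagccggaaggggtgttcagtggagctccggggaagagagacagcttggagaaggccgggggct

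Both strands were searched, and no match to 1 motif overlapped a match to another. The most upstream Vmp1 window held the antioxidant response element 168 bases before the start, and each of the 3 Vmp1 windows in the table held 1 match. Map1lc3b held it 4 bases after its start. Atg3 held the E-box 94 and 71 bases before its start, and Gabarapl1 matched none of the 4 motifs. Of the 36 members with a promoter in the table, 6 held the antioxidant response element (16.7%), as did 17.5% of 8703 tested genes and 12.4% of all 32851 promoters. The E-box was found in Atg3, Atg5, Atg7 and Atg14, 11.1% of the members, beside 12.1% of tested genes and 7.15% of all promoters. The FOXO and C/EBP-ATF motifs were found in 0 of the 36 members, beside 3.17% and 2.67% of tested genes and 3.65% and 3.97% of all promoters. The members' shares holding the antioxidant response element and the E-box were thus close to those of all tested genes.

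Among the genes that supply membrane, Vmp1 had 833, 769 and 837 CPM in the old libraries, against 486, 372, 282 and 373 CPM in the young. Every old library lay above every young one. It averaged 813 ± 38.4 CPM in old (SD, n = 3) and 378 ± 83.7 CPM in young cells (SD, n = 4), which gave a log2 fold change of 1.10 ± 0.22 (SE), an edgeR adjusted p of 0.107 and an unadjusted p of 5.56e-04. DESeq2, which called 5.06% of the genes it adjusted, called Vmp1 (adjusted p = 6.87e-05), and so did limma-voom (adjusted p = 0.0318), which called 0.435% of the genes. EdgeR restricted to genes averaging 50 CPM or more, of which it called 2.88%, called it too (adjusted p = 0.0263). In the 7 edgeR fits that each left out 1 library, its adjusted p was 0.105 to 0.429 and its log2 fold change 0.99 to 1.25, with 1.25 without young 1 and 1.10 without young 2. The last part of Vmp1 overlaps the miR-21a precursor in a later annotation, and the row of the table named Mir21 held no count.

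The other tested genes of this step had log2 fold changes from -1.17 to 0.14. ATG9 is a membrane protein carried on lipid vesicles, and ATG2 transfers lipid. With the PI3P-binding WIPI proteins, they are encoded by 6 members, of which 5 were tested. Atg9a had 14.6, 19.3 and 20.4 CPM in old cells, against 37.9, 18.4, 28.3 and 28.0 CPM in young cells (log2 fold change -0.64 ± 0.67, edgeR adjusted p = 0.920), with young 2 inside the old range. Wipi2 averaged 38.5 ± 16.2 CPM in old cells, against 56.0 ± 11.9 CPM in young cells (edgeR adjusted p = 0.893). Wipi1 had no count in old 1 and old 3, 16.7 CPM in old 2, and 5.95 to 17.9 CPM in the young libraries. Atg2a and Atg2b had log2 fold changes of 0.14 ± 1.76 and -0.22 ± 0.82, each with an SE above its size. Atg9b was removed by the filter on low counts: its count was 0 in the 3 old libraries, and the young libraries held 0.613, 0, 5.71 and 0.0697 CPM.

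The ATG8 family has 5 members in mouse, in an LC3 branch and a GABARAP branch, and each had a positive log2 fold change, from 0.65 to 0.90. None passed with edgeR over all genes. Map1lc3b, which encodes the LC3B protein commonly used to follow autophagosomes, had 1314, 1258 and 1249 CPM in the old libraries, against 678, 1042, 739.8 and 794 CPM in the young. The old libraries lay close together and above all young ones, of which young 2 came nearest. Its log2 fold change was 0.65 ± 0.20 (edgeR adjusted p = 0.291), and DESeq2 called it (adjusted p = 0.0165), the only one of the 15 alternative fits to do so. Map1lc3a, which encodes LC3A, had 41.5, 20.4 and 34.8 CPM in old cells, against 14.5 to 21.7 CPM in the 4 young libraries. Old 2 lay within the young range, and the log2 fold change was 0.78 ± 0.64 (edgeR adjusted p = 0.882).

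In the GABARAP branch, Gabarapl1 had 151, 153 and 239 CPM in the old libraries, against 91.4, 63.9, 103 and 129 CPM in the young. All old libraries lay above the young, and the log2 fold change was 0.90 ± 0.31 (edgeR adjusted p = 0.344). Gabarap had 485, 272 and 369.6 CPM in old cells, against 221, 322, 135 and 211 CPM in young cells (log2 fold change 0.76 ± 0.31, edgeR adjusted p = 0.483). Young 2 exceeded old 2, so the groups overlapped. Gabarapl2 had 83.3, 61.9 and 71.2 CPM in old cells, against 39.6, 60.3, 26.5 and 55.9 CPM in young cells. The gap between old 2 and young 2 was small, and the log2 fold change was 0.66 ± 0.41 (edgeR adjusted p = 0.756). All 5 genes kept a positive log2 fold change in every alternative fit that tested them, with 0.57 to 0.87 without young 1 and 0.74 to 0.99 without young 2.

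**Figure D1:**
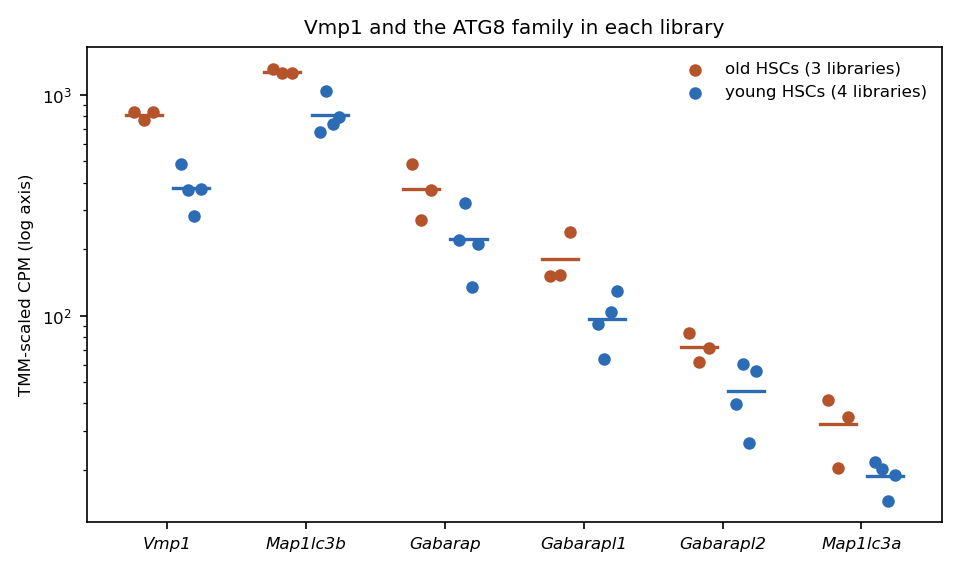
TMM-scaled CPM on a log axis of Vmp1 and the 5 ATG8 family genes in 3 old (left of each pair) and 4 young libraries, 1 point per library, with a bar at each group mean. Old and young points do not overlap for Vmp1, Map1lc3b, Gabarapl1 and Gabarapl2, and do for Gabarap and Map1lc3a.

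The make-up of the family was compared as shares of CPM per kilobase of exon. Gabarap made up 34.5 to 45.9% of the summed ATG8 level in old and 30.4 to 45.1% in young libraries, and Map1lc3b 32.4 to 41.6% in old and 33.8 to 43.5% in young. Gabarapl1 held 10.6 to 18.3% in old and 6.64 to 17.3% in young libraries. Gabarapl2 and Map1lc3a each held at most 7.74% in any library. The ranges of the groups overlapped for all 5 genes, and these shares were not tested. In plain CPM, the family summed to 2075, 1766 and 1964 in the old libraries, against 1052, 1509, 1019 and 1209 in the young. Map1lc3b made up most of each of these sums.

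Genes for the enzymes that attach ATG8 proteins to lipid, and ATG12 to ATG5, had log2 fold changes from -0.63 to 1.24, 8 of 11 of them positive (median 0.25). None had an unadjusted p under 0.05. Atg3 had 234, 253 and 244 CPM in the old libraries, against 168, 262, 174 and 182 CPM in the young, where young 2 exceeded all old libraries (log2 fold change 0.31 ± 0.23, edgeR adjusted p = 0.840). Atg4c, one of 4 proteases that trim and release ATG8 proteins, had 25.4, 74.9 and 67.1 CPM in old cells, against 35.6, 24.0, 28.1 and 28.4 CPM in young cells, with old 1 among the young values (edgeR adjusted p = 0.681). The scaffold gene Atg16l1 averaged 50.4 ± 12.8 CPM in old cells, against 77.7 ± 43.2 CPM in young cells (edgeR adjusted p = 0.860). Atg12, the ubiquitin-like protein of the conjugate, differed little, with 86.8 ± 27.4 CPM in old cells, against 88.2 ± 18.5 CPM in young cells. Atg7, the activating enzyme shared by both conjugation routes, averaged 42.7 ± 15.9 CPM in old cells, against 38.9 ± 22.0 CPM in young cells.

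In the ULK complex, which starts autophagy, 4 of 5 genes had a negative log2 fold change (median -0.29), as had 5927 of all 11506 tested genes. None of the 5 had an unadjusted p under 0.05. Atg101, a stabilising subunit and the member of this complex with the most CPM, had 107, 88.9 and 112 CPM in the old libraries, against 142, 135, 106 and 120.2 CPM in the young. Young 3 lay inside the old range, and the log2 fold change was -0.29 ± 0.25 (edgeR adjusted p = 0.884). Atg13, the adaptor of the complex, had 14.2, 31.7 and 19.4 CPM in old cells, against 57.8, 26.2, 51.1 and 35.7 CPM in young cells, with young 2 below old 2 (log2 fold change -0.97 ± 0.59, edgeR adjusted p = 0.748). The kinase gene Ulk1 averaged 11.5 ± 6.94 CPM in old cells, against 23.5 ± 11.04 CPM in young cells, and Ulk2 averaged 20.8 ± 9.64 CPM in old cells, against 21.8 ± 14.5 CPM in young cells. Rb1cc1, which encodes the scaffold FIP200, averaged 97.0 ± 30.2 CPM in old cells, against 64.2 ± 36.7 CPM in young cells (log2 fold change 0.60 ± 0.47, edgeR adjusted p = 0.869).

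The class III PI3-kinase complex makes PI3P. Its 6 genes split evenly by sign, with a median log2 fold change of -0.11. Becn1, its Beclin 1 subunit, had 202, 169.8 and 163 CPM in the old libraries, against 116, 165, 189 and 201 CPM in the young, so the groups lay on top of each other (log2 fold change 0.09 ± 0.25, edgeR adjusted p = 0.984). Its sign turned with the scaling, at -0.01 with library size alone. Exons of Becn1 overlap those of Cntd1 on the other strand by up to 1297 bases in a later annotation. The library kit leaves strand unmarked, so the counts could mix reads of both genes. The same holds for Sqstm1 with Mrnip (580 bases), Rab7 with Gm5577 (204 bases) and Map1lc3b with Zcchc14 (58 bases), and Atg9a overlaps Gm29253 on its own strand (1072 bases). Atg2b, Atg9b, Atg14, Gabarapl1, Optn, Rb1cc1, Tax1bp1, Uvrag and Wdfy3 overlap a gene on the other strand by 47 to 383 bases. Also on the other strand, Atg4d overlaps Kri1 (792 bases) and Atg9a overlaps Ankzf1 (37 bases). The catalytic subunit gene Pik3c3 averaged 54.9 ± 18.6 CPM in old cells, against 68.1 ± 45.5 CPM in young cells, where young 2 held 13.7 and young 1 held 125 CPM. Ambra1, a regulator of Beclin 1, had 0.302, 0.371 and 0.231 CPM in the old libraries, against 0, 6.71, 0 and 15.3 CPM in the young. The young libraries thus lay both below and above the old, and its log2 fold change of -4.17 had an SE of 2.73 (edgeR adjusted p = 0.788). Atg14, which directs the complex to autophagosomes, had 12.8, 48.7 and 9.49 CPM in old cells, against 0, 45.8, 11.8 and 0.174 CPM in young cells.

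Cargo receptors link what is to be degraded to ATG8 proteins. Tax1bp1, a receptor for ubiquitin-tagged cargo, had 899, 1029 and 1097 CPM in the old libraries, against 912, 1257, 771 and 659 CPM in the young, with the highest value in young 2 (log2 fold change 0.16 ± 0.24, edgeR adjusted p = 0.967). Sqstm1, which encodes the receptor p62, had 73.8, 110.5 and 111 CPM in old cells, against 45.0, 33.9, 96.2 and 135 CPM in young cells. Young 4 exceeded every old library while young 1 and young 2 lay below them (log2 fold change 0.34 ± 0.49, edgeR adjusted p = 0.960). The related receptor Nbr1 averaged 15.6 ± 11.9 CPM in old cells, against 29.5 ± 11.4 CPM in young cells (edgeR adjusted p = 0.915). Optn, Calcoco1 and Wdfy3 had log2 fold changes of 0.90, -0.16 and 0.21, each with an SE above its size. For fusion with lysosomes, the small GTPase gene Rab7 had 87.7, 125 and 72.5 CPM in old cells, against 151, 147, 111 and 93.8 CPM in young cells (log2 fold change -0.40 ± 0.30, edgeR adjusted p = 0.849). Epg5, a tether of that step, had 0.944 to 46.0 CPM in old libraries, against 5.50 to 31.4 CPM in young libraries. Of the ULK-related kinases outside the initiation complex, Ulk3 had 6.61, 7.96 and 0.0768 CPM in old cells, against 22.6, 0, 27.5 and 10.9 CPM in young cells (log2 fold change -1.64 ± 1.98, edgeR adjusted p = 0.939). Ulk4 was removed by the filter on low counts, with a count of 0 in the 3 old libraries and at most 0.482 CPM in a young one.

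**Figure D2:**
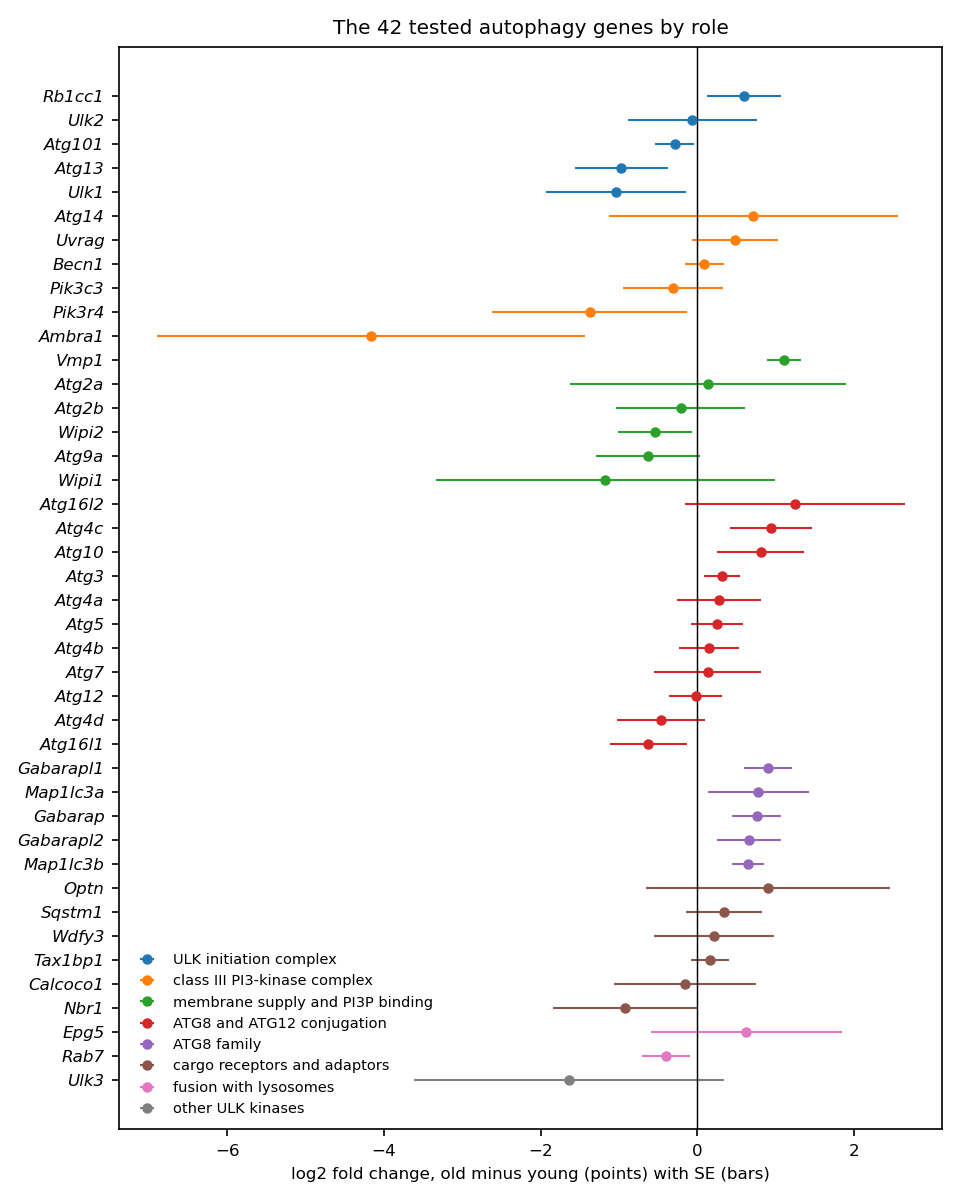
Log2 fold change of old minus young (points) with its SE (bars) for the 42 tested members, grouped by role from initiation at the top to the other ULK kinases at the bottom. The 5 ATG8 family genes all lie right of 0, at 0.65 to 0.90, and 4 of 5 ULK complex genes lie left of it.

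**Figure D3:**
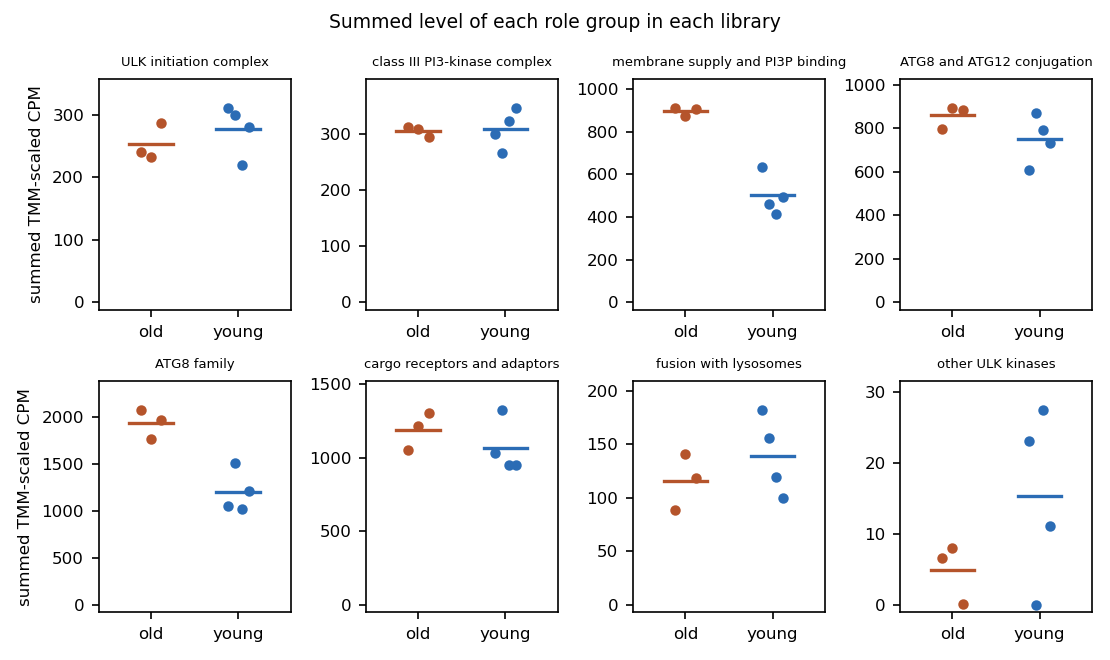
Summed TMM-scaled CPM of each role group in 3 old (left) and 4 young libraries, 1 point per library, with a bar at each group mean. Old and young points do not overlap for the ATG8 family, whose sum is mostly Map1lc3b, and for membrane supply, whose sum is mostly Vmp1. They overlap for the 6 other groups.

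Summed over all 44 genes, old libraries held 5486, 5436 and 5762 CPM, against 4145, 4886, 3865 and 4120 CPM in the young. Map1lc3b, Tax1bp1 and Vmp1 together made up 55.2 to 56.2% of this sum in old and 44.3 to 54.7% in young libraries. The other 41 members summed to 2440, 2381 and 2579 CPM in old libraries, against 2068, 2214, 2073 and 2294 CPM in young libraries. They still include Gabarap, Gabarapl1, Gabarapl2 and Map1lc3a, which averaged 376, 181, 72.1 and 32.2 CPM in old cells. In young cells these averaged 222, 97.0, 45.6 and 18.8 CPM. The sums of the role groups outside the ATG8 family and membrane supply overlapped between old and young libraries. These sums were not tested.

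Levels of different genes were compared as CPM per kilobase of exon, with lengths from a later annotation. Tax1bp1 had the highest mean in both groups, 307 per kilobase in old and 274 in young HSCs, though in old 1 both Gabarap (359) and Vmp1 (299) lay above it (274). Vmp1 (292 in old and 136 in young), Gabarap (278 in old and 165 in young) and Map1lc3b (246 in old and 157 in young) followed in old HSCs, while in young HSCs Gabarap and Map1lc3b stood before Vmp1. In the old libraries the range of Gabarap overlapped those of the other three, and that of Vmp1 overlapped that of Tax1bp1. In the young libraries the ranges of Gabarap, Map1lc3b and Vmp1 overlapped each other, and those of Gabarap and Map1lc3b reached into that of Tax1bp1. Atg3, Gabarapl1 and Atg101 came next, at 80.8 to 118 in old and 53.3 to 99.0 in young HSCs. At the low end, Atg2a and Ambra1 had 1.02 and 0.0569 per kilobase in old and 0.926 and 1.04 in young HSCs.

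**Figure D4:**
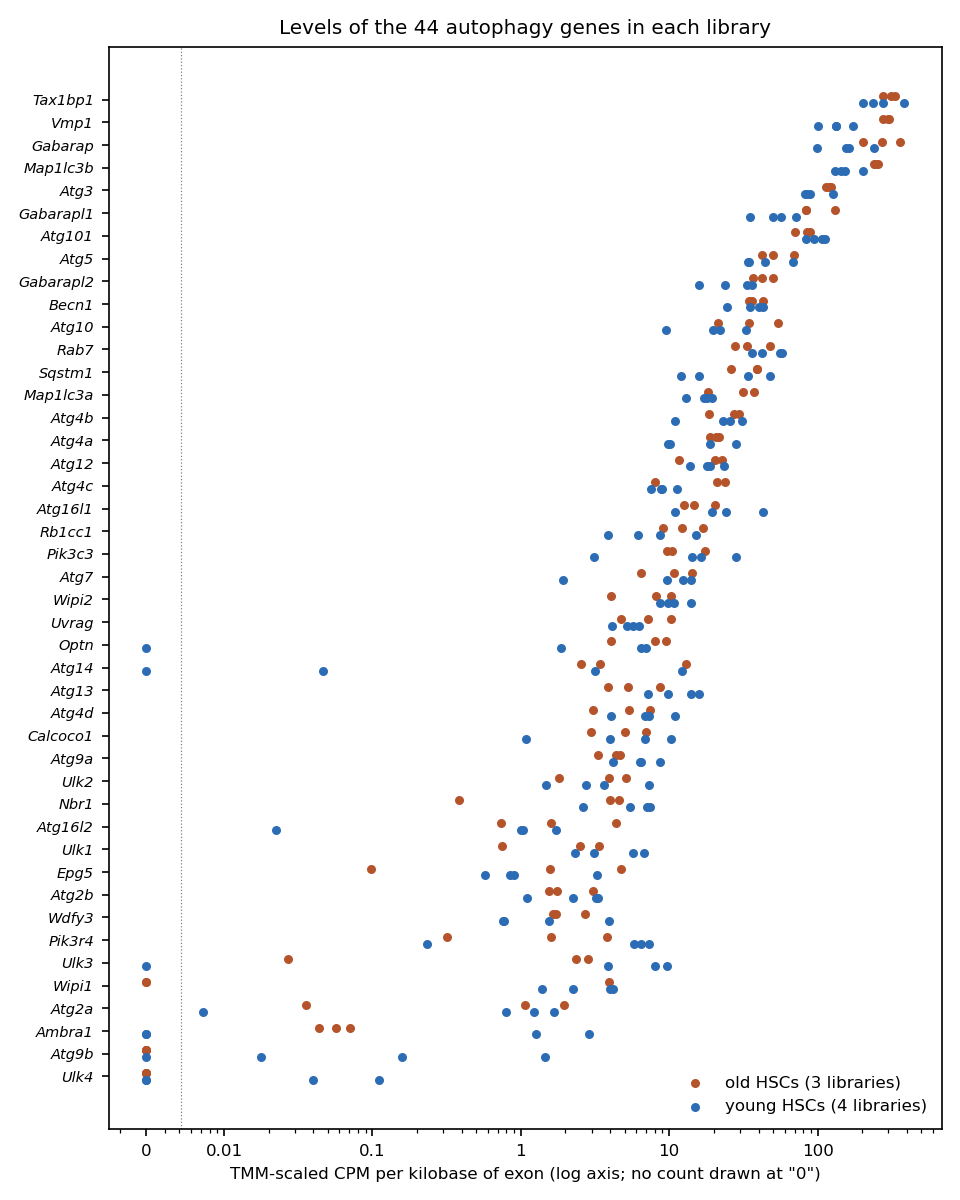
TMM-scaled CPM per kilobase of exon on a log axis for all 44 members, ordered by their mean in old HSCs, 1 point per library with old drawn above young and libraries with no count at the left edge. Members at the top lie within a narrow band, while, for example, Atg14, Wipi1, Ambra1 and Ulk3 run from no count to more than 1 per kilobase.

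Spread between libraries differed widely among the members. The 8 genes with at least 100 CPM in both groups (Tax1bp1, Map1lc3b, Vmp1, Gabarap, Atg3, Becn1, Atg5 and Atg101) had a coefficient of variation of 2.77 to 28.4% in old and 12.6 to 35.3% in young HSCs. It was over 100% in old HSCs for Wipi1 and Epg5 and in young HSCs for Atg14 and Ambra1. Its median over the tested members was 33.6% in old and 40.1% in young HSCs, beside 41.7% in old and 53.4% in young HSCs over all tested genes, whose median level was 32.2 CPM against 40.4 CPM for the members. Among the tested members, 5 had no count in at least 1 library, as had 3108 of all tested genes.

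Transcription factors that are known to control autophagy genes were examined next to the members. Of 12 tested, none passed with edgeR over all genes and 3 had an unadjusted p under 0.05, all 3 with more in old HSCs, beside 9.12% of all tested genes in either direction and 4.62% with more (median log2 fold change 0.33). Cebpb, a factor of myeloid and stress programmes, had 221, 161 and 289 CPM in the old libraries, against 74.9, 99.5, 88.6 and 71.8 CPM in the young, which all lay lower (log2 fold change 1.42 ± 0.27, edgeR adjusted p = 0.102). Nfe2l2, the NRF2 factor of the antioxidant response, had 318, 288 and 313 CPM in old cells, against 222, 259, 151 and 205 CPM in young cells, without overlap (log2 fold change 0.55 ± 0.23, edgeR adjusted p = 0.474). Zkscan3, known as a repressor of autophagy genes, averaged 128 ± 46.9 CPM in old cells, against 68.3 ± 23.4 CPM in young cells (edgeR adjusted p = 0.524), with old 2 among the young values.

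The nutrient-sensing kinases upstream of ULK are mTORC1, which restrains it, and AMPK, which activates it. None of 34 tested genes of these complexes and their inputs passed with edgeR over all genes, and their median log2 fold change was -0.09. Sesn1, which encodes a leucine-sensing inhibitor of mTORC1, had 563, 626 and 500.4 CPM in the old libraries, against 309, 149.7, 272 and 353 CPM in the young, all of them lower (log2 fold change 1.06 ± 0.28, edgeR adjusted p = 0.204). Tsc2, another brake on mTORC1, had 4.65, 2.29 and 10.2 CPM in old cells, against 26.4, 22.3, 60.2 and 16.7 CPM in young cells, without overlap (log2 fold change -2.46 ± 0.94, edgeR adjusted p = 0.417). Both restrain mTORC1, and their log2 fold changes had opposite signs. Flcn, which acts on the GTPases that recruit mTORC1, averaged 33.9 ± 22.6 CPM in old cells, against 94.4 ± 56.6 CPM in young cells (edgeR adjusted p = 0.656).

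Of 15 tested genes of fusion between autophagosomes and lysosomes, none passed with edgeR over all genes (median log2 fold change 0.29). The syntaxin gene Stx7, of late endosomes, averaged 287 ± 62.3 CPM in old cells, against 132 ± 32.1 CPM in young cells (log2 fold change 1.12 ± 0.27, edgeR adjusted p = 0.170). Stx17, the syntaxin of the autophagosome itself, averaged 65.4 ± 20.9 CPM in old cells, against 33.0 ± 10.5 CPM in young cells (log2 fold change 0.99 ± 0.47, edgeR adjusted p = 0.594), and in both genes the groups did not overlap. The gene listed as 1700021K19Rik, another symbol of Rubcn, whose product Rubicon inhibits this step, had at most 1.40 CPM in old libraries, against at most 14.7 CPM in young libraries (edgeR adjusted p = 0.894).

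Among 20 tested receptors and related genes of selective autophagy outside the rule, none passed with edgeR over all genes (median log2 fold change 0.33). Park2, the parkin ubiquitin ligase of mitophagy, had 11.9, 0.681 and 7.49 CPM in the old libraries and at most 0.457 CPM in the young (edgeR adjusted p = 0.430). Phb2, an inner mitochondrial membrane receptor, averaged 153 ± 33.9 CPM in old cells, against 249 ± 62.7 CPM in young cells, without overlap (log2 fold change -0.70 ± 0.28, edgeR adjusted p = 0.442). Bcl2l13, a receptor of the outer mitochondrial membrane, averaged 14.9 ± 11.9 CPM in old cells, against 44.7 ± 18.1 CPM in young cells (edgeR adjusted p = 0.625). Of 26 tested further early factors, none passed (median 0.07). The small GTPase gene Rab24 averaged 294 ± 71.9 CPM in old cells, against 157 ± 40.9 CPM in young cells, without overlap (log2 fold change 0.91 ± 0.28, edgeR adjusted p = 0.295). Sh3glb1, which encodes the membrane-bending Bif-1, averaged 225 ± 24.5 CPM in old cells, against 145 ± 48.6 CPM in young cells (edgeR adjusted p = 0.552). The phosphoinositide phosphatase gene Tmem55a averaged 97.4 ± 14.4 CPM in old cells, against 55.4 ± 19.6 CPM in young cells (edgeR adjusted p = 0.588).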

How the data were processed

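RNA of sorted HSCs was sequenced in 7 libraries, 3 old and 4 young. Per the labels' protocols, cDNA was made with Smart-seq+ and libraries with Nextera XT, a kit that leaves strand unmarked. Per the submitters' processing notes, Trimmomatic, FastQC, STAR and featureCounts were used with genome build mm9. The sources used here give neither versions nor settings nor the annotation. The authors deposited raw read counts per gene symbol. No molecular identifiers are stated, so counts include amplification copies, and limits from a count of 0 cover counting error only.

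The analysis used R 4.3.3 and edgeR 4.0.16 (filterByExpr with minimum count 10 and minimum total 15, TMM scaling, quasi-likelihood F test on group, 2-sided, Benjamini-Hochberg over 11506 genes), with DESeq2 1.42.0 and limma 3.58.1 as alternatives. SE was derived from the log2 fold change and the square root of F. CPM are TMM-scaled. Exon lengths and overlaps came from GENCODE M21 (GRCm38), not mm9. The labels name no batch. Every pair of libraries differed by more than sampling noise.

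The genes, role groups and lists were chosen with earlier results of these data known, and motifs and printed promoters after the values were seen. Library values were given for members with an unadjusted p under 0.05, without overlap, with the most CPM in their role group, or in the ATG8 family, and for others named after their values were seen. From each list the 3 genes with the smallest p were named.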

Additional observations from a re-analysis of the deposited data

Results flagged for a closer look

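Atg3 in young HSCs had 1 library far from the others: young 2 held 262 CPM, while the other young libraries held 168 to 182 CPM. The gap made up 0.847 of the range of the group, above the 95% critical value of Dixon's test for 4 samples. It was the only one of the 12 tested members with library values fixed for print to be flagged in this way, and chance flags about 1 in 20 groups.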

How the results depend on the processing

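EdgeR called 0 of 42 members, beside 0.252% of all genes. Among the 15 alternative fits, DESeq2 called 2 of 44 (Vmp1 and Map1lc3b), beside 5.06% of the genes it adjusted. Limma-voom called 1 of 42 (Vmp1), beside 0.435% of all genes. When only genes averaging 50 CPM or more were tested, 1 of 17 members was called (Vmp1), beside 2.88% of those genes. The count of members called was 0 in the other fits. Members with an unadjusted p under 0.05 numbered 4 with edgeR, beside 9.12% of all genes in either direction. Without 1 library they numbered 2 to 6, beside 6.92 to 12.4% of all genes. They numbered 5 with DESeq2 and 5 with limma-voom, 4 with more in old HSCs in each. With the replicate number as a block they numbered 2. The share of all genes at this threshold is not given here for DESeq2, limma-voom and the block. The count of all genes called was 29, and was 591 with DESeq2, 50 with limma-voom, 16 with library size alone, 130 among genes averaging 50 CPM or more, and 2 to 18 without 1 library. The median log2 fold change over all genes was -0.12 with library size alone and -0.03 with TMM. Members whose groups did not overlap numbered 4 of 42 in the reported fit and 5 of 42 with library size alone (beside 1491 of 11506 genes). Among genes averaging 50 CPM or more they numbered 5 of 17 tested members (29.4%), beside 800 of 4510 genes (17.7%). Atg101 was added as lower in old in both of these settings. Members without overlap numbered 4 to 12 without 1 library. Without old 2 they numbered 12 (9 higher and 3 lower in old, 21.3% of all genes). Without young 2 they numbered 12 (7 higher and 5 lower, 23.7% of all genes). The median log2 fold change of the members was 0.14, and -0.0039 to 0.22 without 1 library, reversed in sign without old 2. Over all genes it was -0.0811 to 0.000297 without 1 library, with -0.0811 without old 2. Becn1 reversed with library size alone (log2 fold change -0.012), without old 1 (-0.012) and without young 1 (-0.055), over a range of -0.055 to 0.19 without 1 library. The other 11 members with fixed library values kept their direction in every alternative that tested them. The causes of these differences were not tested.

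Deviations of same-numbered old and young libraries had correlations of 0.03, -0.07 and -0.01, where all old and young pairs lay between -0.0745 and 0.0849. The labels do not say whether the numbers pair samples, and correlations among so few libraries cannot settle it. With the replicate number as a block, 0 genes were called, 0 members were called and 2 members had an unadjusted p under 0.05. These 2 had more in old HSCs, and the share of all genes is not given here for this fit. The filter on low counts removed Atg9b and Ulk4, which were tested without it. Low members such as Ambra1 and Atg14 had values of 0 beside much higher ones.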
